A study of Homo sapiens with 18 samples.

Results

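Beta-2 integrins are the adhesion receptors of leukocytes. The genes described here are the common beta chain ITGB2, the alpha chains ITGAL, ITGAM and ITGAX, the ligands ICAM1, ICAM2 and ICAM3, and the mucin-like surface proteins SPN (CD43) and SELPLG (the P-selectin ligand). They are the 9 rows of the count table whose Ensembl identifier carries one of these symbols, of 63677 rows in all, and all 9 were among the 16678 genes that passed the filter on low counts. They were chosen by their roles and by values of these data already seen. ITGB2 had been noticed for its log2 fold change in the comparison of TRAFD1 knockdown with scrambled siRNA without LPS, and SPN in that of scrambled siRNA with no siRNA without LPS, so that differences between conditions without LPS are given as a description with no test.

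RNA came from THP-1, a monocytic leukaemia line grown in suspension. The conditions were a TRAFD1 siRNA at 25 nM (KD), a scrambled siRNA (SCR) and no siRNA at all (WT). At 72 h each was given either LPS, a bacterial cell wall component, at 10 ng/ml or medium alone for 4 h. Each of the 6 groups held 3 libraries. WT is described as untreated in one label and as having received the transfection mix without siRNA in another. An influence of the reagent and one of the scrambled siRNA thus cannot be told apart in SCR against WT. In KD against WT an influence of the reagent, of siRNA as such and of the lower TRAFD1 cannot be told apart either. All groups are of 1 cell line and 1 siRNA per condition, and nothing in the labels ties the triplicates to separate days, so that the p-values below measure the spread between these libraries, which may be technical.

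An integrin of this family reaches the cell surface as a pair of ITGB2 with an alpha chain. ITGAL makes the pair LFA-1, which binds the ICAM proteins and holds leukocytes to endothelium and to each other. ITGAM and ITGAX make the complement receptors of myeloid cells, which also take up opsonised particles. SPN and SELPLG are long, heavily glycosylated proteins. SELPLG catches selectins while a cell rolls along a vessel wall, before the integrins arrest it, and SPN is an abundant sialylated mucin of most leukocytes.

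In GRCh37, ITGB2 (ENSG00000160255) is a protein-coding gene of chromosome 21, from 46305868 to 46351904. The alpha chains lie on chromosome 16, ITGAL from 30483979 to 30534888, ITGAM from 31271288 to 31344213 and ITGAX from 31366455 to 31394320, and SPN (ENSG00000197471) is on the same chromosome from 29674300 to 29682197. ICAM1 (ENSG00000090339, 10381769 to 10397291) and ICAM3 (10444452 to 10450337) are on chromosome 19, ICAM2 is on chromosome 17 (62079954 to 62097994) and SELPLG on chromosome 12 (109015671 to 109027670).

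The siRNA and the promoter of ICAM1 are shown because the values below turn on the knockdown and on the LPS response of ICAM1. In the target and in the strand complementary to it, capitals mark the seed, bases 2 to 8 of that strand, and its match in the target. In the ICAM1 sequence, the 250 bases before the start of transcription in the RefSeq table (GRCh38.p14, chr19:10270870-10271119, plus strand), capitals mark a match to a kappa B motif, the kind of site that NF-kB binds.
TRAFD1 siRNA target: cccagccgacccaTTAACAAt
complementary strand: aUUGUUAAugggucggcuggg
ICAM1 upstream: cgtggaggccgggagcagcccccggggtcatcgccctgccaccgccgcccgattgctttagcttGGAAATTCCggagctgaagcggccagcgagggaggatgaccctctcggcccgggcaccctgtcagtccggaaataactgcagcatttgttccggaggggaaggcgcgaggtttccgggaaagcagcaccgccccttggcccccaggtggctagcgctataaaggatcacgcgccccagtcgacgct

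The motif was searched on both strands as GGGNNTTCC and GGANNTTCC, and 10.8% of 35116 RefSeq promoters of 300 bases held either form. The match in ICAM1 begins at base -186 from the start of transcription. Promoters of 3 of the 9 genes, ICAM1, ICAM3 and ITGAM, were matched in that table. One of the 3 listed promoters of ICAM3, which did not pass in any LPS response, held a match as well, at base -7, and that of ITGAM held 0. The match of the siRNA seed, TTAACAA, was in the annotated 3′ untranslated regions of 0 of the 9 genes, against 16.4% of those of 12463 genes tested. A match is a run of letters and not a site that was measured to be bound.

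TRAFD1 itself was at 26.8, 20.1 and 24.3 CPM (counts per 1000000, scaled by TMM) in the SCR libraries without LPS and at 11.6, 5.37 and 9.02 CPM in KD. With LPS the SCR libraries held 21.9, 27.5 and 18.7 CPM and the KD libraries 15.8, 14.0 and 13.8 CPM. The groups did not overlap in either state. The edgeR quasi-likelihood test gave a log2 fold change of -1.45 ± 0.23 (SE) without LPS (adjusted p = 0.0277) and of -0.65 ± 0.22 with LPS, which did not pass the threshold of 0.05 (adjusted p = 0.262), so that the knockdown was measured less firmly in the LPS state. Against WT it was -1.23 ± 0.23 without LPS (adjusted p = 0.00156). With LPS the WT libraries held 19.2, 20.3 and 11.6 CPM and overlapped with KD, and KD minus WT was -0.23 ± 0.23 (adjusted p = 0.563), so that TRAFD1 itself did not pass the test in that comparison, which is used below. TRAFD1 was higher with LPS than without in KD, by 0.73 ± 0.23 (adjusted p = 0.0456).

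Total counts ran from 8206023 to 22344279 per library, and the floor below which a count of 0 cannot be told from a low level, 3 counts, stood for 0.134 to 0.366 CPM, which covers counting error only. Of the 9 genes ICAM1 had the lowest counts, between 21 and 63 in the WT libraries without LPS. The 9 markers of monocytic cells had counts above 0 in every library, among them FCER1G at 280 to 438 CPM and SPI1 at 45.7 to 111 CPM, whereas MPO stayed between 0.160 and 2.45 CPM and at its lowest was below the floor. Their summed level moved with the condition: without LPS the WT, SCR and KD libraries held 530 to 608, 673 to 757 and 683 to 792 CPM, and with LPS 586 to 630, 601 to 678 and 695 to 746 CPM. Its part in the differences between conditions was not tested. The summed lists of 6 T cell, 4 endothelial, 5 epithelial and 4 erythroid markers stayed at or below 3.24 CPM and that of 6 macrophage markers at or below 9.98 CPM. CD3E was at 0 in 17 libraries and HBB in 18. The 4 B cell markers summed to 30.0 to 51.4 CPM, nearly all of it PAX5 at 26.8 to 48.7 CPM, while MS4A1 and CD79A had at most 3 counts.

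Because each fragment of this 3′ protocol stands for one transcript, CPM can be set side by side between genes, although they still depend on where a gene's end was annotated. ITGB2 was by far the most abundant of the 9, at a mean of 3148 CPM over the 18 libraries and above 99.8% of the genes tested. SPN was next at 385 CPM. ITGAX, SELPLG, ITGAL, ICAM1 and ITGAM followed at 46.5, 45.0, 34.8, 25.9 and 18.4 CPM, and ICAM3 and ICAM2 came last at 8.75 and 4.86 CPM. ICAM1 varied 43.0-fold between its lowest and highest library, SELPLG 3.04-fold and ITGAX 1.35-fold. In every group all ITGB2 libraries were above all SPN libraries, and these above all others. Further down, the neighbours SELPLG and ITGAX overlapped in SCR and KD without LPS, ITGAX and ITGAL in KD without LPS, ICAM1 and ITGAX in all 3 conditions with LPS, and SELPLG and ITGAL in WT and SCR with LPS. ICAM3, ICAM1 and ICAM2 overlapped as neighbours in SCR without LPS.

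**Figure D1:**
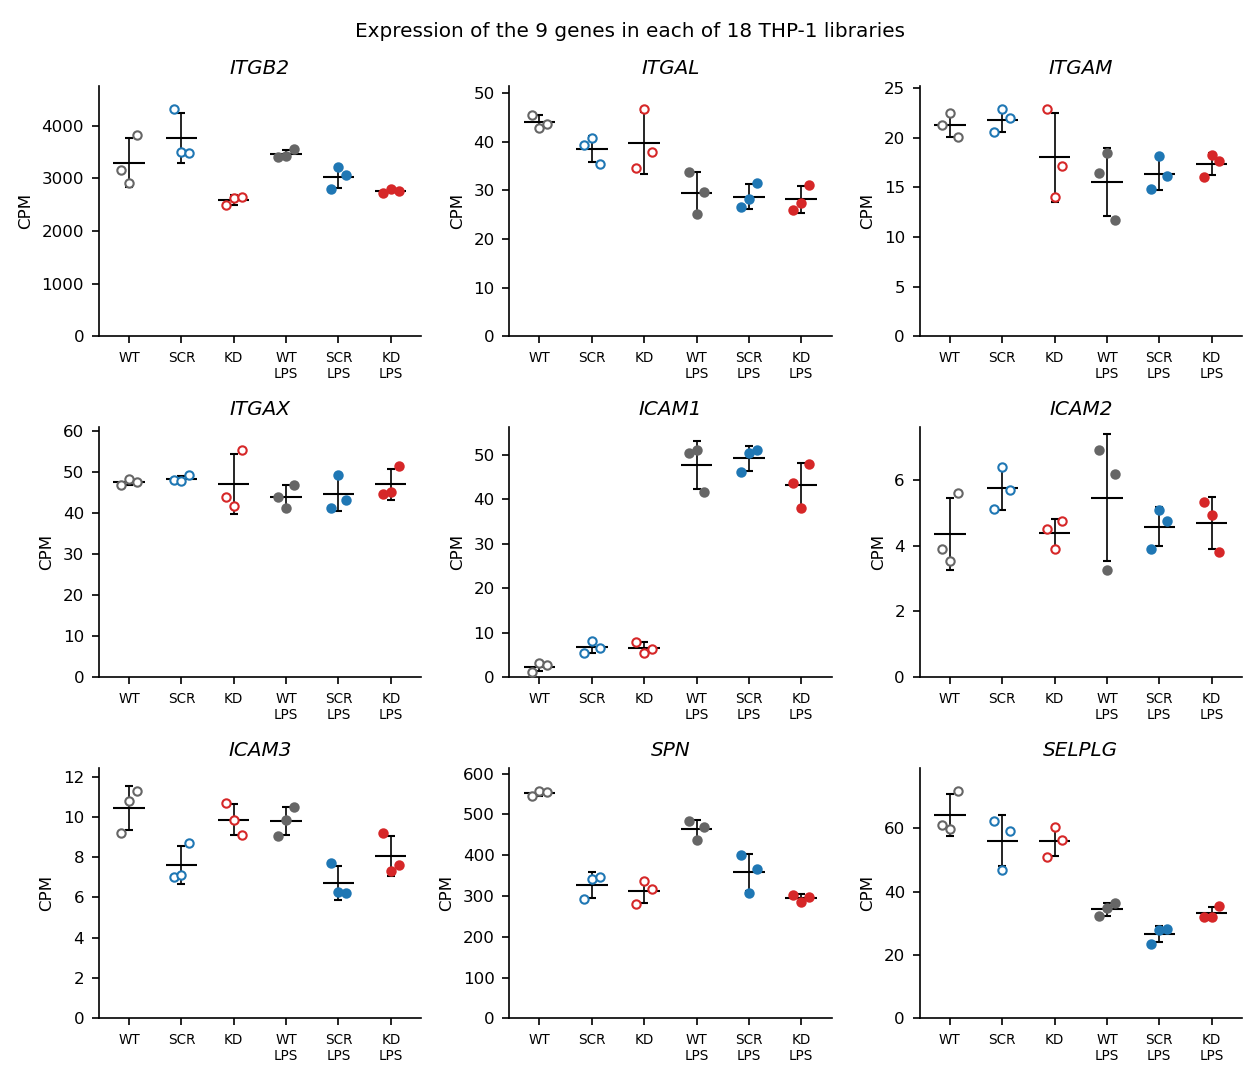
Expression of each of the 9 genes in CPM (vertical axis, from 0) in the 18 libraries, in the order WT, SCR and KD without LPS (open points) and with LPS (filled points); bars are the mean and SD of 3 libraries. ICAM1 is at 1.19 to 8.22 CPM without LPS and 37.9 to 51.1 CPM with LPS, SPN is highest in both WT groups, and ITGB2 is lowest in both KD groups.

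The strongest response of the family to LPS was that of ICAM1, the inducible ligand of LFA-1 and Mac-1. In WT it was at 1.19, 3.18 and 2.80 CPM without LPS and at 50.4, 51.1 and 41.5 CPM with LPS. In SCR the values were 5.42, 8.22 and 6.62 CPM against 46.0, 50.3 and 51.1 CPM. In KD they were 7.92, 5.37 and 6.30 CPM against 43.6, 37.9 and 47.8 CPM. Every library with LPS was above every library without, in each condition.
The rise was 20.3-fold in WT (log2 4.34 ± 0.24, adjusted p = 1.41e-11), 7.39-fold in SCR (log2 2.89 ± 0.21, adjusted p = 3.71e-09) and 6.55-fold in KD (log2 2.71 ± 0.21, adjusted p = 1.01e-08), all by edgeR. ICAM4-AS1, a noncoding gene on the opposite strand, ends over the last 500 bases of ICAM1, where reads were counted, and the strand setting of the count is not given in the sources used here, so that reads of this pair may be mixed.

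The levels that ICAM1 reached with LPS were close in the 3 conditions. KD minus WT was -0.15 on the log2 scale (95% interval -0.54 to 0.25, adjusted p = 0.677), and SCR minus WT was 0.04 (-0.35 to 0.44, adjusted p = 0.943). Where the conditions were apart was before LPS, with means of 2.39 ± 1.06 CPM in WT, 6.76 ± 1.40 in SCR and 6.53 ± 1.29 in KD (SD, n = 3 each), and the WT libraries did not overlap with the others. The log2 difference without LPS, given as a description, was 1.50 ± 0.25 (SE) for SCR minus WT, 1.48 ± 0.25 for KD minus WT and -0.02 ± 0.23 for KD minus SCR.
The LPS response of ICAM1 was smaller in KD than in WT by 1.63 ± 0.31 on the log2 scale, as the interaction term of -1.63 showed (adjusted p = 0.0217, edgeR). ICAM1 was 1 of 9 genes called in that interaction, in which 0.360% of all genes were called. This call was lost without WT replicate 4, WT replicate 5 or KD replicate 5, all of the LPS state (adjusted p = 0.0553, 0.0681 and 0.0706), and with the compared libraries fitted alone (adjusted p = 0.0850). For SCR against WT the interaction was -1.46 ± 0.31 and did not pass (adjusted p = 0.0554, edgeR), so that 0 of 9 genes were called beside 0.234% of all genes. At an unadjusted p under 0.05 there were 3 of the 9 and 1661 of all genes, and DESeq2 called 1 of the 9, ICAM1, and 80 of all genes. Without WT replicate 2 of the unstimulated state the edgeR value was -1.65 with an adjusted p of 0.0226. For KD against SCR it was -0.17 ± 0.29 (adjusted p = 0.913), with 0 of 9 genes and 0% of all genes called by edgeR, 1 of 9 and 1274 of all genes at an unadjusted p under 0.05, and 0 of either by DESeq2. WT without LPS, where ICAM1 had 21, 35 and 63 counts, enters both interactions with WT.

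ICAM2, the ligand found on resting endothelium and platelets, and ICAM3, the ICAM of resting leukocytes, were low and did not pass the test in any LPS response. ICAM2 lay between 3.26 and 6.91 CPM in all 18 libraries, from 31 to 126 counts. ICAM3 was at 9.21, 10.8 and 11.3 CPM in WT, 7.02, 7.13 and 8.70 CPM in SCR and 10.7, 9.83 and 9.10 CPM in KD without LPS. With LPS it was at 9.05, 9.86 and 10.5 CPM in WT, 7.69, 6.26 and 6.23 CPM in SCR and 9.18, 7.32 and 7.62 CPM in KD. The SCR libraries thus lay below all WT libraries in both states. With LPS, SCR minus WT was -0.55 ± 0.18 on the log2 scale and did not pass the test (adjusted p = 0.201). KD minus SCR was 0.26 ± 0.18 (adjusted p = 0.573), and the libraries of KD and SCR overlapped. PRR29, a protein-coding gene of the opposite strand, covers the end of ICAM2 in the annotation, but the last 500 bases of PRR29 itself lie outside those of ICAM2.

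SELPLG fell with LPS in all 3 conditions. WT went from 61.1, 59.8 and 71.8 CPM to 32.2, 34.8 and 36.2 CPM, SCR from 62.2, 46.9 and 59.0 CPM to 23.6, 28.0 and 28.3 CPM, and KD from 51.0, 60.5 and 56.1 CPM to 32.1, 31.8 and 35.4 CPM. The groups with and without LPS were well apart in each condition.
On the log2 scale it fell by 0.90 ± 0.12 in WT (adjusted p = 1.62e-05), by 1.07 ± 0.12 in SCR (adjusted p = 2.82e-06) and by 0.75 ± 0.12 in KD (adjusted p = 0.000236). The response in KD minus that in SCR was 0.32 ± 0.17 and did not pass (adjusted p = 0.685). Within the LPS state the 3 SCR libraries were the lowest of the 9, but neither KD minus SCR (0.31 ± 0.12, adjusted p = 0.340) nor SCR minus WT (-0.36 ± 0.13, adjusted p = 0.231) passed.

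Among the alpha chains, ITGAL fell with LPS as well. Its levels were 45.5, 42.8 and 43.7 CPM in WT, 39.3, 40.7 and 35.4 CPM in SCR and 34.5, 46.8 and 37.9 CPM in KD without LPS. With LPS they were 33.8, 25.2 and 29.7 CPM, 26.5, 28.2 and 31.5 CPM, and 25.9, 27.4 and 31.1 CPM. In each condition all libraries with LPS were below all without.
The log2 change was -0.58 ± 0.13 in WT (adjusted p = 0.00422), -0.42 ± 0.13 in SCR (adjusted p = 0.0312) and -0.50 ± 0.13 in KD (adjusted p = 0.0167). Only the WT call held whichever single library was left out. In SCR it was lost without unstimulated replicate 1 or 2 or LPS replicate 4 or 5 (adjusted p = 0.0959, 0.0983, 0.144 and 0.0902), and in KD without unstimulated replicate 2 or LPS replicate 4 or 5 (adjusted p = 0.105, 0.0774 and 0.0716).
ITGAM, whose product marks monocytes and neutrophils, showed a like difference in WT (21.3 ± 1.21 CPM without and 15.6 ± 3.44 CPM with LPS; log2 -0.45 ± 0.17, adjusted p = 0.0890) and in SCR (21.8 ± 1.18 and 16.4 ± 1.64 CPM; -0.41 ± 0.17, adjusted p = 0.111), but it did not pass. In SCR it did pass with the GC correction (-0.46, adjusted p = 0.0371) and with the compared libraries fitted alone (-0.40, adjusted p = 0.0484). In KD its libraries held 22.9, 14.0 and 17.2 CPM without and 16.1, 18.2 and 17.7 CPM with LPS (-0.06 ± 0.17, adjusted p = 0.865). ITGAX, the CD11c chain of dendritic cells and macrophages, was the steadiest of the 9, with group means between 44.1 and 48.5 CPM and log2 LPS responses of -0.12 ± 0.11, -0.12 ± 0.11 and 0.00 ± 0.11 in WT, SCR and KD.

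In all, 3 of the 9 genes passed the threshold for LPS in WT, where 14.3% of all genes were called, 4 in SCR, beside 17.2%, and 3 in KD, beside 11.5%. The SCR count includes ITGB2, which was picked on the SCR libraries without LPS, so that nothing is read from its call, and it is 3 without that gene. ICAM1 was the 1 gene that was higher in each, beside 7.01%, 8.64% and 6.41% of all genes. The genes that were lower numbered 2, 3 (ITGB2 included) and 2, beside 7.26%, 8.56% and 5.05%. The SCR count was 2 without unstimulated replicate 1 or without LPS replicate 4. The replicates with and without LPS did not overlap for 6, 6 and 4 of the 9 genes, against 32.5%, 37.3% and 25.4% of all genes. The median log2 change of the 9 was -0.12, -0.31 and -0.06, beside -0.03, -0.03 and 0.00 over all genes tested. The counts without overlap include SPN in WT and ITGB2 in SCR and KD, and the medians include both genes throughout. Both were picked on libraries without LPS that enter these responses, so that nothing is read from either set of values. The 3 responses and the comparisons between conditions share their groups of libraries and are not independent.

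**Figure D2:**
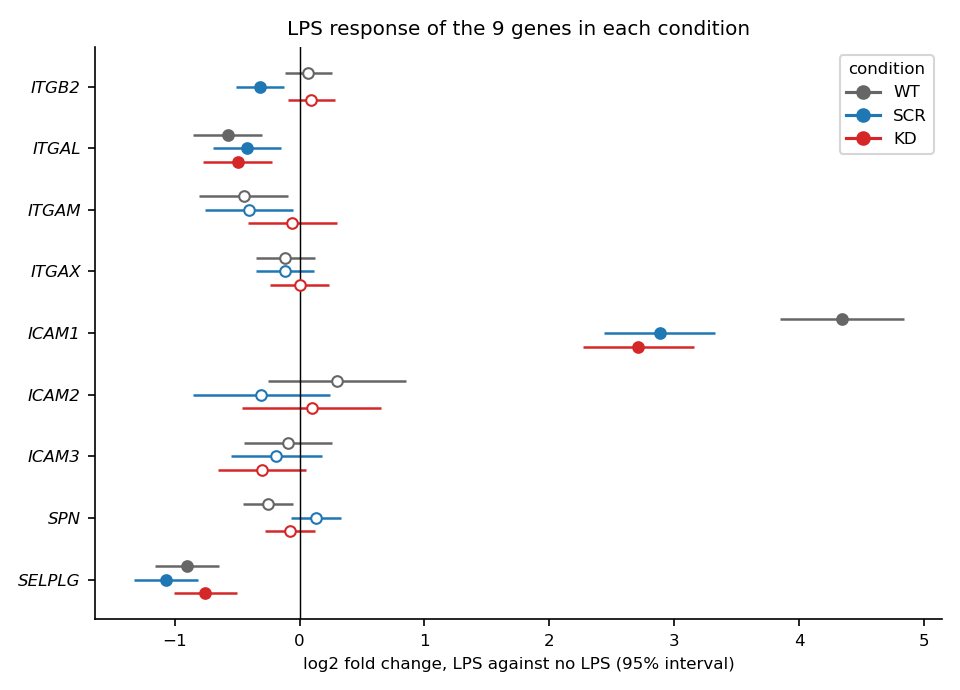
log2 fold change of LPS against no LPS (horizontal axis) with its 95% interval for each of the 9 genes in WT, SCR and KD, 3 libraries a group; filled points passed an adjusted p of 0.05. ICAM1 rose by 4.34, 2.89 and 2.71 on the log2 scale, SELPLG and ITGAL fell in all 3 conditions, and the filled point of ITGB2 in SCR is a description, since the gene was picked on the SCR libraries without LPS.

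ITGB2, the chain that every beta-2 integrin needs, was lowest in KD in both states. Without LPS the 9 libraries read 3148, 2914 and 3816 CPM in WT, 4319, 3498 and 3482 CPM in SCR and 2488, 2623 and 2653 CPM in KD. All KD libraries were below all SCR and all WT libraries, while WT and SCR overlapped. This is the comparison in which ITGB2 was noticed: KD minus SCR was -0.54 ± 0.09 on the log2 scale, or 0.687-fold, KD minus WT was -0.35 ± 0.09 and SCR minus WT 0.19 ± 0.09, with no test. ITGB2 was the 1 of 9 genes past the threshold in KD against SCR without LPS, beside 0.0660% of all genes, which says nothing more since it was picked there. It no longer passed, at 0 of 9 genes, without SCR replicate 1 or 3 or KD replicate 2. SCR replicate 1 was the highest library of all, and without it KD minus SCR was -0.43. Past the same threshold were 2 of 9 genes in SCR against WT (SPN and ICAM1, with 3.23% of all genes) and 3 of 9 in KD against WT (ITGB2, SPN and ICAM1, with 11.7%). Nothing is read from these counts either, since SPN was picked in the former and both share their libraries with the comparisons used for picking. ITGB2 dropped out of the latter without WT replicate 3, where KD minus WT was -0.23.

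With LPS, in libraries that played no part in picking it, ITGB2 was at 3404, 3423 and 3550 CPM in WT, 2797, 3214 and 3052 CPM in SCR and 2729, 2795 and 2764 CPM in KD. The groups stood in that order without overlap, although the highest KD library and the lowest SCR library were 2795 and 2797 CPM. KD minus SCR was -0.13 on the log2 scale (95% interval -0.32 to 0.06) and did not pass the test (adjusted p = 0.594, edgeR). SCR minus WT was -0.20 ± 0.09 (adjusted p = 0.351). KD was below WT by a log2 difference of -0.32 ± 0.09, a change of -20.1% on the linear scale (adjusted p = 0.0264). That call was lost whichever of the 6 libraries was left out: the adjusted p was 0.0587, 0.0537 and 0.117 without WT replicates 4, 5 and 6 and 0.0813, 0.0805 and 0.0733 without KD replicates 4, 5 and 6, with log2 differences from -0.34 to -0.31.

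The LPS response of ITGB2 in WT was 0.07 ± 0.09 on the log2 scale and did not pass (adjusted p = 0.681, edgeR). The SCR and KD libraries without LPS are those in which ITGB2 was noticed, so that the log2 differences in SCR (-0.32 ± 0.09) and KD (0.09 ± 0.09) are given with no test. The SCR value was -0.21 without unstimulated replicate 1 and -0.26 without LPS replicate 4. All SCR libraries with LPS were below those without, and all KD libraries with LPS were above those without. The response in KD minus that in SCR was 0.41 ± 0.13, and in SCR minus WT -0.39 ± 0.13, given with no test for the same reason.

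The beta chain and the alpha chains did not vary together. Over the 18 libraries, which share their groups, the Pearson correlation of log2 CPM of ITGB2 was 0.159 with ITGAL, 0.164 with ITGAM and 0.122 with ITGAX. ITGB2 exceeded the summed alpha chains 24.0- to 40.3-fold. In KD without LPS the ratio was 24.5, 25.5 and 24.0, below the 31.3 to 39.9 of SCR and the 25.6 to 34.2 of WT. ITGB2 was picked on libraries without LPS, so that nothing is read from these ratios. With LPS the ratio was 27.6 to 31.5 in KD, 33.6 to 33.9 in SCR and 36.1 to 40.3 in WT. Within the alpha chains ITGAX held 42.2% ± 0.807 in WT without LPS and 49.5% ± 3.27 with LPS (SD, n = 3), and ITGAL 38.9% ± 1.21 and 33.0% ± 3.13. ITGAX was the largest share on average in all 6 groups. By contrast, ICAM1 correlated with SELPLG at -0.929 and with ITGAL at -0.894, and ITGAL with SELPLG at 0.866, which describes libraries that fall into groups with and without LPS. The genes whose pattern over the 18 libraries was most like that of ITGB2 were TUBA1C, PPM1F and MMGT1, at Pearson correlations of 0.909, 0.903 and 0.900 among 8647 genes with a mean of at least 10 CPM.

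**Figure D3:**
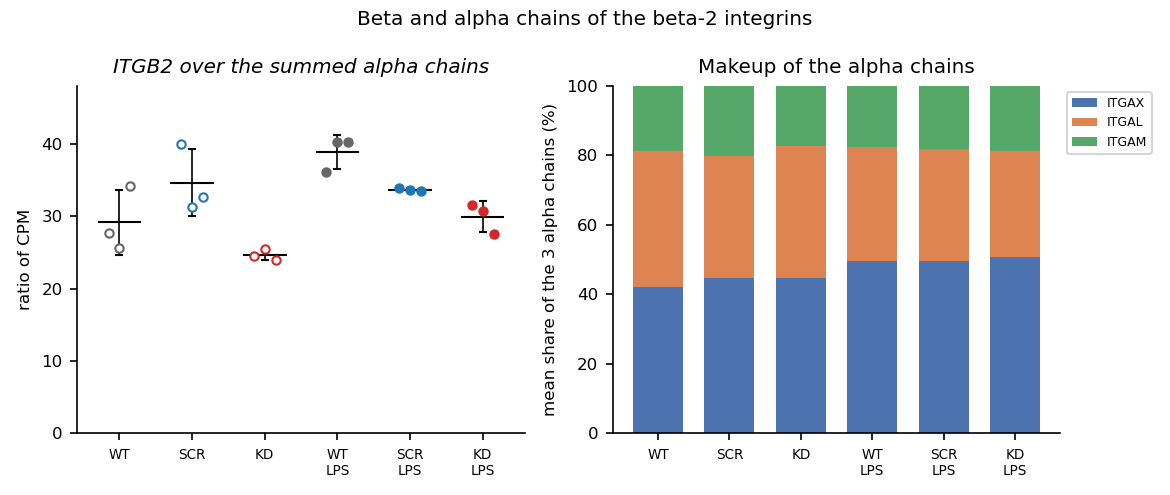
Left, ratio of ITGB2 CPM to the summed CPM of ITGAL, ITGAM and ITGAX in each library (open points without LPS, filled with LPS; bars are mean and SD of 3 libraries). Right, mean share in percent of each alpha chain in that sum per group, where ITGAX has the largest mean share in all groups. The ratio is lowest in KD without LPS at 24.0 to 25.5, which is a description, since ITGB2 was picked on those libraries.

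SPN separated the cells without siRNA from both siRNA conditions. Without LPS it was at 545, 558 and 554 CPM in WT, 292, 342 and 348 CPM in SCR and 280, 336 and 318 CPM in KD. Every WT library was far above every other, and SCR and KD overlapped. SCR minus WT, where SPN was noticed, was -0.76 ± 0.10 on the log2 scale (0.592-fold), KD minus WT -0.83 ± 0.10 and KD minus SCR -0.07 ± 0.10, with no test. The share of counts in annotated pseudogenes also set WT apart. Without LPS it was 9.14% to 9.64% in WT, 10.2% to 10.5% in SCR and 10.5% to 11.2% in KD, and with LPS 10.0% to 10.2%, 10.5% to 10.6% and 10.8% to 10.9%, so that in that state it was lowest in WT and highest in KD without overlap, where SPN and ITGB2 were highest in WT and lowest in KD. Its part in these differences was not tested.

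With LPS, SPN was at 483, 437 and 469 CPM in WT, 400, 308 and 365 CPM in SCR and 302, 285 and 299 CPM in KD, again in an order without overlap. KD was lower than WT by a log2 difference of -0.65 ± 0.10, or 0.637-fold (adjusted p = 0.000866, edgeR), and this held without any single library (adjusted p from 0.00256 to 0.00965). SCR minus WT was -0.37 ± 0.10 and did not pass (adjusted p = 0.121). With the replicate number as a block it was -0.38 with an adjusted p of 0.0270 (edgeR). The block with a correction for GC content gave -0.48 with an adjusted p of 0.00742. No label pairs the libraries, and the pairing of SCR with WT was taken from correlations in these same data. The block was also fitted to KD, whose numbers did not pair by correlation, so that nothing is read from these 2 values. KD minus SCR was -0.28 ± 0.10 (adjusted p = 0.264). The LPS response of SPN in KD was -0.08 ± 0.10 and did not pass (adjusted p = 0.660). Those of WT (-0.25 ± 0.10) and SCR (0.13 ± 0.10) reuse the libraries in which it was noticed and are given with no test.

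QPRT, which encodes an enzyme of NAD synthesis, overlaps SPN on the same strand of chromosome 16, from 29674600 to 29710020 in the annotation used here, with an end of its own outside the counted bases of SPN. QPRT, like SPN, was highest in WT without LPS, at 218 ± 8.75 CPM in WT, 141 ± 7.69 in SCR and 129 ± 3.88 in KD (SD, n = 3 each), and was at 151 ± 10.9, 118 ± 9.27 and 130 ± 7.30 CPM with LPS. With LPS its KD minus WT difference was -0.21 ± 0.09 (adjusted p = 0.127, edgeR), against -0.65 for SPN. It was singled out after its values were seen, and how far reads of the pair are shared was not tested. The last 500 bases of SPN have a GC content of 32.2%, among the lowest 13.2% of the genes tested, and with LPS the log2 differences of all genes followed GC content with a Spearman correlation of -0.212 in SCR against WT and -0.165 in KD against WT. SPN in KD against WT passed under each of the 7 other settings, the GC correction among them (adjusted p at most 0.000796). The genes most like SPN over the 18 libraries were NPEPPS, FXR2 and KIAA0319L, at Pearson correlations of 0.952, 0.939 and 0.932.

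In the LPS state as a whole, 0 of the 9 genes were called in KD against SCR, where 0% of all genes were called by edgeR. At an unadjusted p under 0.05 there were 2 of the 9 and 1963 of all genes, and DESeq2 called 0 of the 9 and 167 of all genes. SCR against WT had 0 of 9 with 0.114% of all genes called, 4 of 9 and 2285 of all genes at an unadjusted p under 0.05, and 1 of 9, SPN, and 203 of all genes by DESeq2. KD against WT had 2 of 9, ITGB2 and SPN, both lower, where 10.8% of all genes were called and 4.55% were lower. The median log2 difference of the 9 was 0.02, -0.20 and -0.15 in these comparisons, beside 0.02, 0.01 and 0.00 over all genes. Since KD against WT is the sum of the other differences, the 3 share their libraries. The lack of overlap between conditions, named for single genes, is a description, since its share over all genes is not given.

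**Figure D4:**
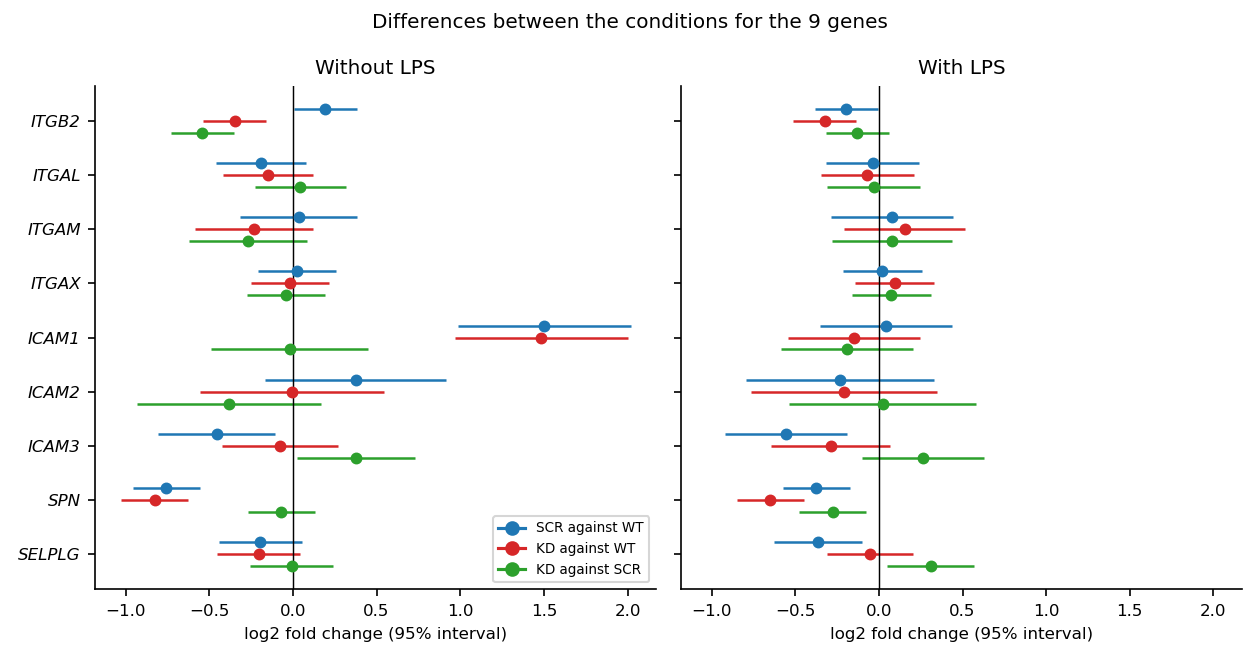
log2 fold change (horizontal axis) with its 95% interval for SCR against WT, KD against WT and KD against SCR without LPS (left) and with LPS (right), 9 genes, 3 libraries a group. SPN is lower in SCR and KD than in WT on both sides, and ICAM1 is higher by 1.50 and 1.48 without LPS and near 0 with LPS.

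The wider adhesion machinery was read from 7 lists of 60 genes, of which 51 were tested. The lists were chosen with earlier results of these data known. With LPS, 8 rose and 7 fell in WT (29.4% of those tested, beside 14.3% of all genes), 7 rose and 6 fell in SCR (25.5%, beside 17.2%), and 7 rose and 3 fell in KD (19.6%, beside 11.5%). CD44, a hyaluronan receptor, rose most firmly, by 2.04 ± 0.11 on the log2 scale in WT (adjusted p = 1.97e-11), 1.13 ± 0.11 in SCR (adjusted p = 2.48e-07) and 1.14 ± 0.11 in KD (adjusted p = 2.73e-07). Of 8 kinases and effectors that act downstream of beta-2 integrins, 3 rose and 2 fell in WT, beside 7.01% and 7.26% of all genes. In SCR 3 of the 8 rose and 1 fell (beside 8.64% and 8.56%), and in KD 2 rose and 0 fell (beside 6.41% and 5.05%). LYN, a kinase of the Src family, rose in each condition, in WT from 254 ± 12.5 to 388 ± 7.41 CPM. SYK, a kinase that signals from immune receptors and integrins, fell in WT by 0.75 ± 0.13 on the log2 scale (adjusted p = 0.000272) and was the 1 that fell in SCR, by 0.39 ± 0.13 (adjusted p = 0.0413). The other that fell in WT was PTK2B, a relative of focal adhesion kinase, by 0.54 ± 0.13 (adjusted p = 0.00872).

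Inside-out activation is the step in which signals inside the cell open the integrin. Of its 12 listed genes LPS lowered 3 in each of WT and SCR, beside 7.26% and 8.56% of all genes. In KD it lowered 2 and raised 1, beside 5.05% and 6.41%. RASGRP2, an exchange factor for RAP1, fell in WT from 123 ± 13.9 to 78.2 ± 7.89 CPM (adjusted p = 0.000261), and also in SCR (log2 -0.40 ± 0.11, adjusted p = 0.0172) and KD (-0.36 ± 0.11, adjusted p = 0.0406). FLNA, an actin linker that holds integrins inactive, fell in SCR (-0.53 ± 0.13, adjusted p = 0.00689) and in KD (-0.68 ± 0.13, adjusted p = 0.00126). Since FLNA is counted in the same list, the counts give no direction of integrin activation. Of 6 focal linkers PXN fell in each condition, by 0.65 ± 0.10, 0.60 ± 0.10 and 0.39 ± 0.10, while 1 other rose in SCR. MSN, a linker of membrane proteins to actin and 1 of 3 such genes listed, fell in SCR (-0.39 ± 0.10, adjusted p = 0.0114). Another of the 3 rose in SCR, and 1 of the 3 rose in WT. Of the other leukocyte integrins 0 of 8 tested passed in any of the 3 LPS responses by edgeR. In these 14.3%, 17.2% and 11.5% of all genes were called, so that nothing is read from 0 of 8.

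Between conditions with LPS, the 51 genes showed 5 higher and 6 lower in KD against WT (21.6%, beside 10.8% of all genes). By edgeR 0 of the 51 were called in SCR against WT and in KD against SCR, beside 0.114% and 0% of all genes. CD99 (0.64 ± 0.15, adjusted p = 0.0113), TPST1, a sulfating enzyme listed for mucin-like ligands (1.00 ± 0.30, adjusted p = 0.0366), and VCL (0.34 ± 0.10, adjusted p = 0.0373) were higher on the log2 scale. TPST1 was low, at 33, 43 and 29 counts in WT and 62, 114 and 92 counts in KD. B4GALT1, a galactosyltransferase, was lower at 229 ± 8.60 against 304 ± 7.78 CPM (adjusted p = 0.00291), as were CYTH1, a regulator of LFA-1 adhesion (-0.36 ± 0.09, adjusted p = 0.0177), and LYN (-0.29 ± 0.08, adjusted p = 0.0235). Without LPS, as a description, the mean level of CD44 in WT, SCR and KD was 43.0 ± 2.61, 73.6 ± 2.26 and 70.6 ± 14.5 CPM, and that of RASGRP2 was 123 ± 13.9, 83.6 ± 9.43 and 76.5 ± 7.26 CPM (SD, n = 3 each).

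CD44 and ICAM1 were both lowest in WT without LPS. With LPS, CD44 was at 177 ± 7.43, 161 ± 4.02 and 156 ± 5.60 CPM in WT, SCR and KD, and neither SCR minus WT (adjusted p = 0.616) nor KD minus WT (adjusted p = 0.305, edgeR) passed, although the WT libraries lay above the others. The LPS response of CD44 was smaller than in WT in both siRNA conditions, with an interaction of -0.91 ± 0.16 for SCR (adjusted p = 0.00916) and -0.90 ± 0.16 for KD (adjusted p = 0.0105, edgeR). CD44 was the 1 gene of 51 called in either interaction, beside 0.234% of all genes for SCR and 0.360% for KD. It was singled out there after its values were seen.

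**Figure D5:**
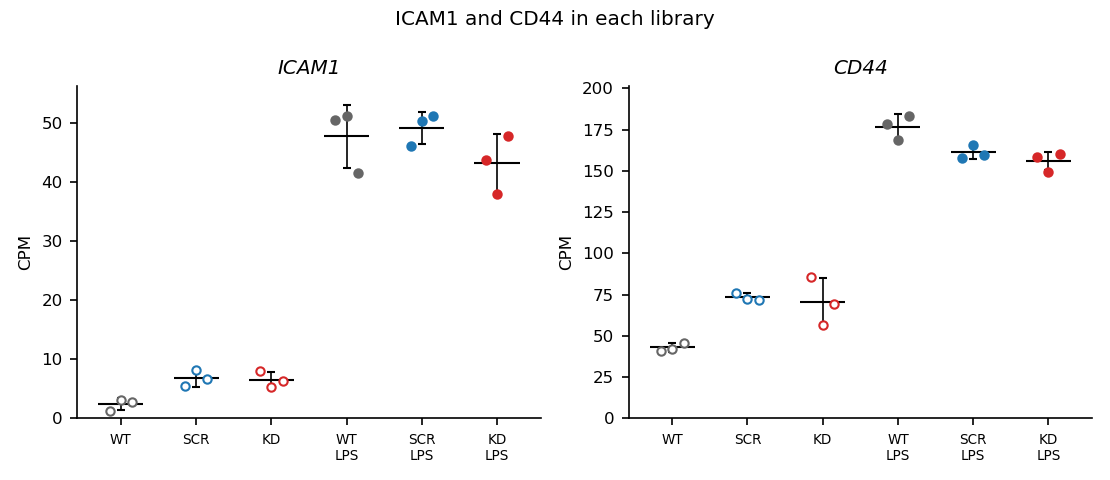
ICAM1 and CD44 in CPM (vertical axes, from 0) in each of the 18 libraries, open points without and filled points with LPS, with the mean and SD of 3 libraries. Both are lowest in WT without LPS, at means of 2.39 and 43.0 CPM, and reach 43.1 to 49.1 and 156 to 177 CPM with LPS.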

How the data were processed

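THP-1 libraries were made with a QuantSeq 3′ kit. The authors removed low-quality, adaptor and poly-A reads, aligned the rest with HISAT to GRCh37 with Ensembl annotation, and counted reads per gene with featureCounts in the last 500 bases of each gene. They deposited 1 table of raw read counts, 1 column per library, and all 18 columns were used (0 left out). Groups came from the sample titles.

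Counts were analysed with edgeR 4.0.16 in R 4.3.3. Genes were filtered with filterByExpr by group, libraries were scaled by TMM, and the quasi-likelihood F test was run on a model with a mean for each group over the 18 libraries (12 residual and 8.83 prior degrees of freedom). The Benjamini-Hochberg adjustment ran over 16678 genes, with a threshold of 0.05. SE is the size of the log2 fold change over the root of F. An exact permutation test of 3 against 3 libraries cannot go below 0.1. The scripts were tested on simulated data. The alternatives were RLE scaling, DESeq2 1.42.0, no filter, a GC correction, the compared libraries alone, a replicate block and leaving out each replicate. Within groups, all 18 pairs of replicates differed by more than sampling noise (chi-square per gene from 5.29 to 36.2).

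Replicate numbers 1 to 3 recur over the groups without LPS and 4 to 6 over those with LPS. The deviations of same-numbered libraries from their group means correlated above 0.1 in all 3 pairs only in SCR against WT with LPS (0.163 to 0.261). There the numbers were taken to pair the samples, from these correlations and not from a label. The main test left this pairing out, in that comparison as well, and the block is among the alternatives only.

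The 9 genes, the adhesion lists and the tests were chosen with earlier results of these data known. Named are the 9 genes, TRAFD1, per contrast and direction the up to 3 called adhesion genes of lowest adjusted p whose replicates did not overlap, and the 3 genes most correlated with ITGB2 and with SPN. Outside this rule, PTK2B is named as the other listed effector that fell in WT. QPRT, PRR29 and ICAM4-AS1 are named as genes that overlap one of the 9. Symbols and positions came from GENCODE v44lift37 on GRCh37 (55665 of 63677 identifiers matched). Of the listed genes PECAM1 was not matched, and those not tested include ITGAD, ITGB3, ICAM4, ICAM5, JAM3, SELE and SELP. Some listed genes that the rule would name are not reported here.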

Additional observations from a re-analysis of the deposited data

Results flagged for a closer look

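The LPS response of ICAM1 differed between KD and WT, by an interaction of -1.63 on the log2 scale (adjusted p = 0.0217, edgeR, 3 libraries a group), and is picked out because the test of the difference itself passed. That call was lost without any 1 of 3 libraries (adjusted p from 0.0553 to 0.0706) and with the compared libraries fitted alone (adjusted p = 0.0850). CD44 is picked out for the same reason, with -0.908 for SCR against WT (adjusted p = 0.00916) and -0.898 for KD against WT (adjusted p = 0.0105, edgeR). It was singled out after its values were seen. Its calls were not followed through the alternative settings or the leaving out of libraries. The comparisons share the WT libraries, in which both genes were lowest before LPS. No group has over 3 libraries, so that no library was tested for standing apart.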

How the results depend on the processing

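Over 30 log2 fold changes of the 9 genes and 384 alternative values of them, 347 kept their direction and side of the threshold, 28 lost the call, 9 gained it and 0 reversed. Counts of the 9 genes past the threshold moved as follows. Fitting the compared libraries alone gave 0 instead of 1 in KD against SCR without LPS, 1 instead of 3 in KD against WT without LPS, and 0 instead of 1 in the interaction of KD with WT. In SCR against WT with LPS, DESeq2, no filter, the replicate block and the replicate block with GC correction each gave 1 instead of 0, always SPN. In the LPS response in SCR, no filter gave 3 instead of 4 (ITGAL lost), and the GC correction and the compared libraries alone gave 5 (ITGAM gained). In that in KD, the compared libraries alone gave 2 instead of 3 (ITGAL lost). In the interaction of SCR with WT, DESeq2 and no filter gave 1 instead of 0. Leaving out 1 library gave 0 to 1 in KD against SCR without LPS, 2 to 3 instead of 3 in KD against WT without LPS, 1 in KD against WT with LPS, 2 to 4 in the LPS response in SCR, 2 to 3 in that in KD, and 0 to 1 in both interactions with WT. The cause of these shifts was not tested, other than that fewer libraries enter some of the fits.

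The counts over all genes moved more. Over the settings that keep all replicates, 11 genes became 0 to 320 in KD against SCR without LPS, 538 became 409 to 1042 in SCR against WT without LPS, and 1951 became 280 to 2479 in KD against WT without LPS. With LPS, 0 became 0 to 425, 19 became 23 to 593 and 1808 became 1876 to 3235 in the same comparisons. The LPS response in KD went from 1912 to between 847 and 2238, and the interactions from 0 to at most 132 for KD with SCR, from 39 to at most 241 for SCR with WT and from 60 to between 23 and 729 for KD with WT. Leaving out 1 library gave 1 to 52, 193 to 510 and 962 to 1934 calls without LPS, 0, 0 to 14 and 376 to 1428 with LPS, 1682 to 2095, 1789 to 2376 and 1098 to 3150 for the responses in WT, SCR and KD, and 17 to 91 and 21 to 1313 for the interactions of SCR and of KD with WT. The split of calls into higher and lower moved by over 10 percentage points in KD against SCR without LPS, from 4 higher and 7 lower to 7 and 7 with median-of-ratios scaling and 21 and 24 with the GC correction, and with DESeq2 from 4 and 15 to 64 and 139 in SCR against WT with LPS and from 10 and 50 to 120 and 169 in the interaction of KD with WT. The replicate block, for groups whose numbers did not pair by correlation, moved 11 calls to 183 in KD against SCR without LPS, 538 to 934 in SCR against WT without LPS, 0 to 85 in KD against SCR with LPS and 60 to 547 in the interaction of KD with WT, and it changed no other call among the 9 genes than SPN in SCR against WT with LPS. No paired analysis was possible because the groups share no number for the LPS responses. Depth limits ICAM1 before LPS in WT, with 21 to 63 counts, and ICAM2, with 31 to 126. Of the listed genes it also limits TPST1, with 29 to 43 counts in WT with LPS.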
